A study of Mus musculus with 12 samples.

Results

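Peaks of accessible chromatin that lay in exons or in 5′ UTRs, the untranslated stretch at the start of a transcript, were examined in progenitor CD8+ T cells with and without UTX. They were chosen by their HOMER annotation alone, from the authors' table of peaks that differed between the genotypes. Of 23932 listed peaks, 1130 qualified, of which 851 lay in exons and 279 in 5′ UTRs, 4.72% of the list in all. Control mice were *NOD-TCR 8.3 WT*, mice without UTX in T cells were *NOD-TCR 8.3 UTX TCD*, and each group had 3 RNA-seq and 3 ATAC-seq libraries. Mice of both groups were nonobese diabetic (NOD) females, carried the transgenic NY8.3 T cell receptor, which recognises an antigen of pancreatic β cells, and had floxed alleles of *Kdm6a*, the X-linked gene for UTX. Cre was driven by the *Lck* promoter, which acts in T cells from the thymus on, in UTX TCD mice and was lacking in the WT littermates; the floxed line had been crossed from C57BL/6 onto NOD, and an age was given only for a like sort for cell transfer, 6 weeks, not for these libraries. Cells came from the pancreatic lymph node and were sorted on Ly108 (*Slamf6*), without CXCR6 by the labels and without CD39 (*Entpd1*) by the study's methods.

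UTX belongs to the COMPASS-like complexes that methylate histone H3 lysine 4 at enhancers, and it can remove the repressive methyl mark from H3 lysine 27. In vertebrate genomes most CpG dinucleotides have been lost by mutation of methylated cytosine, and CpG islands, which often span a promoter, the 5′ UTR and the first coding exon, are the stretches that kept them. At developmental regulators such islands reach deep into the coding exons, and in cells that do not use these genes they are commonly held by Polycomb complexes.

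The annotation was tested against RefSeq exons of GRCm38.p6, the assembly also called mm10. The middle of the peak lay inside the exon that HOMER named in 1123 of 1130 peaks (99.4%). Each peak was 401 bp long, of which a median of 308 bp fell in that exon, so the intron or promoter beside it was usually part of the window. All 851 exon peaks held coding bases, at a median of 252 bp. HOMER calls a peak promoter-TSS before it looks for exons, and the closest exon or 5′ UTR peak was 101 bp from a transcription start site (TSS). The median distance was 205 bp for 5′ UTR peaks and 5052 bp for exon peaks. HOMER also gives each peak the gene of its nearest TSS, which was the gene whose exon held the peak in 894 cases (79.1%). Where a peak of the other cases is described singly here, both genes are named, and the gene that owns the exon is called the host.

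*Kdm6a* was counted at 28365, 28949 and 29172 normalized reads in the 3 WT libraries and at 24158, 24792 and 24579 in the 3 UTX TCD libraries. The UTX TCD libraries were lower without overlap, at a log2 fold change of -0.23 (standard error 0.04, limma adjusted p = 0.00114). A sum over the whole gene cannot tell one exon from another, and the loss of the floxed part was therefore not checked. Markers of CD8+ T cells were abundant in every library, with *Cd8a* at a mean of 285328 normalized reads. The 6 B cell markers summed to 2957, 2442 and 2805 in WT and to 1226, 1083 and 1008 in UTX TCD libraries, and *Cd79b* was the most abundant. Of the 4 that passed the expression filter, limma called 1 lower (*Cd79b*) and 1 higher (*Ms4a1*). The B cell genes *Pax5* and *Ebf1* were low, with *Pax5* at most 11.1 in any library. The 7 myeloid markers summed to 869, 848 and 707 in WT and to 1064, 798 and 997 in UTX TCD libraries, and *Cd68* was the most abundant. Of 4 tested in that list, *Csf1r* (log2 fold change -1.85) and *Fcgr3* (-2.15) were called lower in UTX TCD cells and *Cd14* was at or near 0. Among 3 CD4 T cell markers 2 were called lower, *Cd4* and *Zbtb7b*, and the sums were 475, 373 and 442 in WT and 373, 350 and 344 in UTX TCD libraries, most of it *Foxp3*. The 3 markers of NK cells summed to at most 103 in any library. Of the 2 tested, *Klre1* was called higher, at 10.9, 15.8 and 9.15 in WT and 49.5, 45.6 and 74.5 in UTX TCD libraries (log2 fold change 2.15, limma adjusted p = 0.00104). Those of plasmacytoid dendritic cells summed to 4996, 4948 and 5467 in WT and to 10475, 11448 and 9475 in UTX TCD libraries; limma called *Bst2* and *Tcf4* higher, which T cells also express, and the sum was mostly *Bst2*, while *Siglech* was at or near 0. Their part in the results below was not tested, and in sorted bulk samples fewer cells of a type and less RNA per cell cannot be told apart.

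Accessibility was higher in UTX TCD cells at 991 of the 1130 exon and 5′ UTR peaks and lower at 139. Each peak had 1 value per genotype, the authors' mean log2 concentration of normalized reads in that genotype, and a difference is UTX TCD minus WT throughout. These means carry no replicate spread here, and the peaks were listed because the authors had found them to differ, so the differences are described and not tested. The share that was higher was 87.7%, beside 68.8% of all listed peaks. Centred on the median of all listed peaks, which leaves as many of them above as below, it was 69.1% of exon and 5′ UTR peaks. A difference over 0.5 was found at 773 of these peaks (68.4%), beside 49.3% of all listed peaks, and one under -0.5 at 98 (8.67%), beside 23.8%. The median difference was 0.75, with an interquartile range from 0.42 to 1.39, and the median over all listed peaks was 0.49. The extremes were 4.00 and -2.99. The median authors' mean was 7.35 in WT and 8.12 in UTX TCD cells.

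The 5′ UTR peaks differed little from the exon peaks in this respect. Of 279 peaks in 5′ UTRs, 91.0% were higher in UTX TCD cells, at a median difference of 0.81. Of 851 exon peaks, 86.6% were higher, at a median of 0.74. Promoter-TSS peaks were higher in 85.3% of 2621 cases, at a median of 0.57. Intron peaks, the most numerous class, were higher in 65.6% of 10808 cases, at a median of 0.46. Exon peaks thus stood near promoter peaks in direction and apart from the introns that surround them, before base composition was taken into account.

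The share of gains fell along the gene. In first exons 94.2% of 206 exon peaks were higher, at a median difference of 1.00. In second exons the share was 90.0% of 140, at a median of 0.91. Exons 3 to 5 had 86.3% of 204 peaks higher, at 0.70, and from exon 6 on the share was 80.1% of 301, at 0.63. The end of the gene broke this order. Peaks in the last of several exons were higher in 90.2% of 204 cases, at a median of 0.77, whereas those in exons that were neither first nor last were higher in 81.4% of 441 cases, at 0.66. Of 50 peaks in transcripts made of a single exon, 49 were higher, at a median of 1.09. Most 5′ UTR peaks were in exon 1, where 229 of 248 were higher, and 22 of the 27 in exon 2 were higher.

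Distance to the nearest TSS gave a similar order. Within 1000 bp of a TSS, 424 of 458 peaks (92.6%) were higher, at a median difference of 0.89. Beyond 1000 bp, 567 of 672 (84.4%) were higher, at a median of 0.71. Over 20000 bp away the share was still 79.2% of 159 peaks. Peaks upstream of the nearest TSS, which lie in an exon of another gene or of a longer transcript, were higher in 110 of 134 cases (82.1%).

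Base composition separated the peaks more than their place in the gene did. The CpG ratio used here is the number of CpG dinucleotides in the peak divided by the number that its C and G content would give in random order. Its median was 0.76 in 5′ UTR peaks, 0.63 in exon peaks, 0.70 in promoter-TSS peaks and 0.23 in intron peaks, and the median share of G and C was 66.3%, 61.3%, 63.1% and 48.1% in that order. A ratio over 0.6 was found in 652 exon and 5′ UTR peaks, and 634 of them (97.2%) were higher in UTX TCD cells, at a median difference of 0.98. At a ratio up to 0.6 there were 478 peaks, of which 357 (74.7%) were higher, at a median of 0.56. In the lowest class, up to 0.2, 48 of 86 were higher, and in the highest, over 0.8, 383 of 391 were. Across the 1130 peaks, Pearson's r between the ratio and the difference was 0.41 and Spearman's coefficient 0.37, as a description over peaks that share their libraries.

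When peaks were split at a CpG ratio of 0.6, the share of gains no longer fell step by step with exon number. Exon 1 still stood higher among peaks of low ratio, at 24 of 29 peaks. Over 0.6, the share of exon peaks that was higher was 96.0% of 177 in exon 1, 100% of 88 in exon 2, 99.0% of 99 in exons 3 to 5 and 96.4% of 84 from exon 6 on. Up to 0.6, it was 82.8% of 29, 73.1% of 52, 74.3% of 105 and 73.7% of 217. The median differences up to 0.6 were 0.92, 0.50, 0.56 and 0.53. The median ratios of these groups were 0.45, 0.44, 0.34 and 0.33, so they were not fully matched. Over all exon peaks, the median CpG ratio fell from 0.85 in exon 1 to 0.72, 0.58 and 0.42 in the same order. It was 0.72 in last exons and 0.88 in single-exon transcripts, where gains were frequent. Introns followed the same course, with 486 of 516 peaks (94.2%) higher at a ratio over 0.6 and 64.2% of 10287 up to it. In promoter-TSS peaks the shares were closer together, at 88.0% of 1689 and 80.4% of 932. By CpG ratio split at 0.2, 0.4, 0.6 and 0.8, exon and 5′ UTR peaks were higher in 55.8%, 69.4%, 87.9%, 96.2% and 98.0%. Intron peaks were higher in 54.9%, 67.5%, 85.9%, 94.4% and 93.7%, and promoter-TSS peaks in 56.1%, 79.6%, 89.2%, 86.2% and 89.7%. Within these classes exon and 5′ UTR peaks thus stood close to intron peaks in direction.

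Gains were also compared at like levels in WT cells. Exon and 5′ UTR peaks were split at the quartiles of the authors' WT mean, which were 6.00, 7.35 and 8.79. In the lowest quartile 282 of 283 peaks were higher, at a median difference of 1.77. The shares in the next quartiles were 246 of 282, 245 of 282 and 218 of 283, at medians of 0.93, 0.63 and 0.35. The WT mean is itself part of the difference, so a low WT mean goes with a larger difference by construction, and this order is not a result in its own right. At a low mean a small difference is also rarely listed, and the smallest absolute difference in these quartiles was 0.61, 0.37, 0.27 and 0.20, so how far the listing itself shapes this order was not tested. Within the same limits of WT mean, promoter-TSS peaks were higher in 99.6%, 94.6%, 91.1% and 73.8%, and intron peaks in 95.3%, 66.8%, 54.2% and 62.0%. Exon and 5′ UTR peaks, at 99.6%, 87.2%, 86.9% and 77.0%, were therefore nearer to promoters than to introns in each of the upper 3 quartiles. CpG ratio was not matched in this comparison. In these 3 quartiles it was over 0.6 in 54.6%, 55.3% and 50.2% of exon and 5′ UTR peaks. Among intron peaks the shares over 0.6 were 4.03%, 4.17% and 4.37%. Exon and 5′ UTR peaks with a ratio up to 0.6 were higher in 75.0%, 70.6% and 63.8% of cases.

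Within each quartile of WT level, the share of gains was higher at a CpG ratio over 0.6 than up to it. Among peaks with a ratio over 0.6, 100%, 97.4%, 100% and 90.1% were higher from the lowest to the highest quartile. With a ratio up to 0.6 these shares were 98.8%, 75.0%, 70.6% and 63.8%. Of the 139 peaks that were lower in UTX TCD cells, 121 had a ratio up to 0.6. The 46 peaks with a difference under -1 had a median ratio of 0.27, and the 129 with a difference over 2 had one of 0.83.

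The letters of the exons show this contrast. The 4 exon peaks with the highest and the 4 with the lowest difference were taken among those that held at least 200 coding bases of the gene named by HOMER, and from each the 30 coding bases richest in CpG are printed on the strand of the gene, with CpG in capitals. *Igfbp5*, *Cd320* and *Thrb* were outside the rule for named genes and were chosen after their values were seen. Among the gains, *Gpr137b* encodes a lysosomal membrane protein (exon 1 of 7, minus strand, chr13:13393372-13393401 of mm10), and its peak held 42 CpG at a difference of 4.00. *Oxct2b* encodes a testis form of the ketone-body enzyme OXCT (exon 1 of 1, plus strand, chr4:123116713-123116742), with 40 CpG and a difference of 3.90. *Ecel1* encodes a membrane metalloprotease of neurons (exon 2 of 18, minus strand, chr1:87154442-87154471), with 55 CpG and 3.63. *Igfbp5* encodes a secreted binder of insulin-like growth factors (exon 1 of 4, minus strand, chr1:72873848-72873877), with 31 CpG and 3.22.
Gpr137b: CGCGgtctacacCGtcttctaCGCGctcct
Oxct2b: cCGagCGcatcCGCGCGggtggcactggCG
Ecel1: CGgCGgCGctgCGcagCGcaaggtgCGCGc
Igfbp5: CGctgcaCGccctgctgcaCGgcCGCGggg

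These 4 losses were poor in CpG with 1 exception. *Cd163* encodes a scavenger receptor for haemoglobin (exon 11 of 17, plus strand, chr6:124320380-124320409 of mm10), and its peak held 6 CpG at a difference of -2.03. *Cd320* encodes the receptor for vitamin B12 bound to transcobalamin (exon 3 of 5, plus strand, chr17:33847646-33847675), with 4 CpG and -1.97. *Thrb* encodes a thyroid hormone receptor (exon 10 of 10, plus strand, chr14:18033564-18033593), with 6 CpG and -1.86. The exception was *Pdzrn3*, a ubiquitin ligase with PDZ domains (exon 1 of 10, minus strand, chr6:101377467-101377496), whose peak held 68 CpG and was lower by a difference of -2.09. Capitals again mark CpG, and the strand is that of the gene.
Cd163: CGaagcccacaaagaaaactgcacaggtCG
Cd320: ggatgatgtctgtattccacacaCGtggCG
Thrb: gCGgatgattggagcttgccatgccagcCG
Pdzrn3: CGaCGCGtgCGaCGCGCGgccCGtgggtCG

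Short motifs of transcription factors were counted in the 401-bp peaks on both strands, and a match is no more than the presence of the letters. GGGCGG, bound by Sp and KLF proteins, was present in 54.0% of the 991 higher and 32.4% of the 139 lower exon and 5′ UTR peaks, beside 22.3% of all listed peaks. TGTGGTT, bound by RUNX proteins, which are needed for the CD8 lineage, was present in 5.85% of the higher and 14.4% of the lower ones, beside 17.7% of all. TTCNNNGAA, bound by STAT proteins, was present in 6.86% and 15.1%, beside 11.9%, and TGANTCA, bound by AP-1, in 5.45% and 11.5%, beside 12.8%. CTTTGA, bound by TCF1 and LEF1, was present in 19.2% and 24.5%, beside 30.6%. The ETS letters CCGGAAG were present in 9.49% and 8.63%, beside 5.00%, and the E-box CAGCTG in 29.8% and 33.1%, beside 24.3%.

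Most of these contrasts between gains and losses were smaller among peaks with a CpG ratio up to 0.6, where 357 were higher and 121 lower. There GGGCGG was present in 27.5% of the higher and 27.3% of the lower peaks, STAT letters in 14.3% and 17.4%, AP-1 letters in 11.2% and 13.2%, and RUNX letters in 10.9% and 16.5%. RUNX letters in coding exons are shown for the 3 lowest differences among exon peaks whose 30-base window around the letters was wholly coding; the letters are in capitals, on the strand that reads TGTGGTT. They lay in exon 3 of *Cd320* (minus strand, chr17:33847517-33847546 of mm10, difference -1.97), in exon 3 of *Rai1*, a chromatin protein gene whose peak had *Mir6921* as its nearest TSS (plus strand, chr11:60185122-60185151, difference -1.50), and in exon 3 of *Thnsl1*, which encodes a protein like threonine synthase (plus strand, chr2:21212079-21212108, difference -1.48). These genes were chosen after their values were seen.
Cd320: ggaagggcagacTGTGGTTggcactgccca
Rai1: ttcgagaaaggTGTGGTTtccatggcaaac
Thnsl1: aaagtgcttgaTGTGGTTaaaagataccaa

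The 1130 peaks belonged to 1068 genes by nearest TSS, and most genes had 1 peak. In 56 genes with more than 1, the peaks differed in direction in 3. The largest number was 3, in 6 genes, which were chosen for description after this was seen. All 18 of their peaks were higher, beside 87.7% of all exon and 5′ UTR peaks. *Skor1*, a corepressor gene of the nervous system, had 1 peak in exon 3 and 2 in exon 2, at 0.42, 0.83 and 1.04. The 3 peaks nearest to *Ass1* lay in exons 73, 84 and 98 of 98 of *Hmcn2*, a gene of the extracellular matrix, at 1.16, 0.53 and 0.41. *Hmcn2* was counted at 40.6, 46.4 and 17.5 in WT and at 249.7, 233.0 and 345.7 in UTX TCD libraries. The groups did not overlap, and the log2 fold change was 3.04 (standard error 0.35, limma adjusted p = 1.82e-04).

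Other peaks near the same exons mostly had the same direction. Another listed peak lay within 5000 bp of 275 exon and 5′ UTR peaks, and for 263 of them (95.6%) every such neighbour shared the direction, at 224 of 231 higher peaks and 39 of 44 lower peaks (88.6%). Since 68.8% of all listed peaks were higher, much of the agreement among gains is expected. Of the 1068 genes, 132 also had a listed promoter-TSS peak, whose mean difference had the sign of the exon or 5′ UTR peaks in 120 (90.9%), and 85.3% of all promoter-TSS peaks were higher. Across chromosomes the share of higher peaks ran from 78.4% of 37 on chromosome 18 to 95.6% of 45 on chromosome 13, and on the X chromosome it was 19 of 21.

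Joined to RNA-seq by gene name, 1013 of the 1068 genes were in the expression table and 626 passed the filter of a mean of at least 10 normalized reads. Expression was higher in UTX TCD cells for 143 of these, 22.8% of those that passed, beside 10.5% of all 14459 genes tested. It was lower for 65, 10.4%, beside 7.05%. A call here needed a limma adjusted p under 0.05 over all genes tested and an absolute log2 fold change over 0.5, on the scale log2(normalized count + 1), which understates changes of genes with low counts. A gene can pass the filter through the genotype in which it is high, and 18 of the genes called higher had a WT mean under 10, as 10 of those called lower had in UTX TCD cells. With 3 libraries against 3, no exact permutation p for a single gene can go below 0.10.

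Direction at the exon went with direction of expression in most called genes. Of 208 called genes, 137 had higher peaks and higher expression and 33 had both lower, together 81.7%. Another 32 had higher peaks and lower expression, and 6 had lower peaks and higher expression. Since most of the 208 had higher peaks and 143 were called higher, part of this agreement is expected. Among 522 tested genes with a mean peak difference above 0, expression was called higher for 26.2% and lower for 6.13%. Among 104 with a mean difference below 0, these shares were 5.77% and 31.7%. Across the 626 genes Spearman's coefficient between peak difference and log2 fold change was 0.35 and Pearson's r 0.42, as a description over genes, which are not independent replicates.

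Genes with the greatest gains at their exons were often hardly expressed. With a mean difference over 2, 39 of 122 genes passed the expression filter (32.0%), and of these 11 were called higher and 0 lower. For the lower direction, 3 had an unadjusted limma p under 0.05, and edgeR and DESeq2 called 0 as well. A gene near 0 in WT passes the filter only through UTX TCD cells and can then only be called higher. *Ecel1*, with means of 0.329 in WT and 37.2 in UTX TCD libraries, is such a case. The absence of lower calls is therefore partly fixed in advance, and how many of the 39 passed in this way is not given. At a mean difference between 1 and 2, 99 of 269 genes passed (36.8%), with 33 called higher and 6 lower. Between 0 and 0.5, 172 of 209 passed (82.3%), with 34 higher and 14 lower. Under -1, 31 of 45 passed (68.9%), with 2 higher and 13 lower. The greatest gains also lay at low WT accessibility, in part by construction. The median WT mean was 4.26 at peaks with a difference over 2 and 8.29 at those between 0 and 1. Expression was not compared at like WT accessibility. Among genes with a mean difference above 0, expression was called higher for 36.1% of 227 tested genes with a first-exon peak, coding or 5′ UTR, and for 18.6% of 295 with peaks further on only, a contrast that was not tested.

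A list of 116 developmental transcription factors was taken by symbol, from families such as *Hox*, *Sox*, *Pax*, *Nkx* and *Lhx*, and leaves out other homeobox genes, *Prox1* among them. Of these 116, 32 had an exon or 5′ UTR peak, and all 35 of their peaks were higher in UTX TCD cells, from 0.22 at *Hoxb4* to 3.44 at *Pax6*. Of the 35, 32 had a CpG ratio over 0.6, and of all exon and 5′ UTR peaks over that ratio 97.2% were higher, so the count is near that share. The median difference was 1.36, beside 0.75 over all exon and 5′ UTR peaks and 0.98 over those with a ratio over 0.6. A low WT mean goes with a larger difference by construction. WT level was not matched here or in the medians that follow. Peaks of any annotation nearest to these genes were higher in 155 of 163 cases, at a median of 1.09. Of all listed peaks 68.8% were higher, at a median of 0.49, and of those with a CpG ratio over 0.6, 91.8%, at 0.75. *Pax6*, the regulator of eye and islet development, had its peak in the 5′ UTR of exon 1, with authors' means of 3.59 in WT and 7.03 in UTX TCD cells. In exon 1 of *Hoxc11*, a gene of posterior body patterning, these means were 4.05 and 6.90, a difference of 2.86. The 5′ UTR of *Hoxc4* had 4.94 and 7.69, and exon 3 of *Nkx6-3*, a regulator of stomach epithelium, had 3.34 and 6.02.

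Transcripts of these regulators were nearly absent. *Hoxc11* had 0 reads in all 6 libraries. *Pax6* had 2, 6 and 2 reads in the WT libraries and 3, 3 and 12 in the UTX TCD libraries. *Hoxc4* had 1, 2 and 1 reads in the WT libraries and 1, 0 and 16 in the UTX TCD, and *Nkx6-3* had 2, 0 and 0 reads in WT and 0 in every UTX TCD library. These counts gave no separation of the genotypes. Of the 32 genes only 3 passed the expression filter, and 2 were called higher, *Hoxb4*, known for expanding haematopoietic stem cells when it is expressed in them, and *Lhx2*, a gene of forebrain development; they were named after their values were seen. *Hoxb4* was counted at 181.3, 196.5 and 192.9 in WT and at 296.9, 293.1 and 325.8 in UTX TCD libraries. Its groups did not overlap, at a log2 fold change of 0.68 (standard error 0.13, limma adjusted p = 0.00285), although its peak had the smallest difference of the group. *Lhx2* was counted at 25.8, 35.5 and 29.0 in WT and at 47.2, 80.1 and 53.8 in UTX TCD libraries, also without overlap, at 0.96 (standard error 0.29, limma adjusted p = 0.0259). Over the whole list, 5 of 12 tested genes were called higher and 0 lower by limma, beside 10.5% and 7.05% of all genes tested, with 0 lower at an unadjusted p under 0.05 and 0 by edgeR or DESeq2.

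Among the strongest gains of accessibility, some came with expression that began from almost nothing. *Cdc42bpb* encodes MRCKβ, a kinase downstream of CDC42 that acts on actomyosin. Its 5′ UTR peak (exon 1 of 37, chr12:111377298-111377698, minus strand) had authors' means of 4.74 in WT and 8.58 in UTX TCD cells, a difference of 3.84. Its normalized reads were 12.9, 37.5 and 25.9 in the WT and 1032, 1163 and 1257 in the UTX TCD libraries. Every UTX TCD library was thus far above every WT library, and the log2 fold change was 5.56 (standard error 0.32, limma adjusted p = 4.11e-06), a 47.2-fold increase on this scale.

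*Dlg5*, a scaffold protein of cell polarity, behaved in the same way. Its 5′ UTR peak at chr14:24245268-24245668 had an authors' mean of 8.05 in UTX TCD cells, a difference of 3.45. Reads were 40.6, 37.5 and 60.2 in WT and 857, 902 and 963 in UTX TCD libraries. The groups stood apart, at a log2 fold change of 4.30 (standard error 0.19, limma adjusted p = 7.68e-07). *Prox1*, a homeobox regulator of lymphatic endothelium, had a 5′ UTR peak at 3.70 and 7.15, and its transcript remained scarce, at 4.95, 0.987 and 0.763 in WT and 20.2, 16.0 and 41.3 in UTX TCD libraries. Its groups did not overlap (log2 fold change 3.17, SE 0.61, adjusted p = 0.00317, limma), and without UTX TCD replicate 3 it was under the expression filter. *Ecel1* was counted at 0, 0.987 and 0 in WT, a single read in all, and at 36.0, 24.8 and 50.9 in UTX TCD libraries. These groups did not overlap either (adjusted p = 1.24e-04, limma), and its exon 2 peak had authors' means of 3.27 and 6.90.

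Other genes with equally large gains had scarce transcripts and no call. *Oxct2b* had 1, 0 and 0 reads in the WT libraries and 0, 0 and 2 in the UTX TCD libraries. *Rtn1*, a reticulon of neurons and dendritic cells, whose 5′ UTR peak differed by 3.60, had 2, 2 and 0 reads in the WT libraries and 0, 0 and 4 in the UTX TCD libraries. Both were at the limit of detection in either genotype. *Gpr137b* was counted at 24.8, 1.97 and 1.53 in WT and at 60.7, 12.0 and 14.0 in UTX TCD libraries; the groups overlapped, and the difference did not pass the test (log2 fold change 1.99, SE 0.94, adjusted p = 0.123, limma). It depended on single libraries, at 3.06 (limma adjusted p = 0.0152) without WT replicate 1 and 1.27 (limma adjusted p = 0.333) without UTX TCD replicate 1. With the replicate block it stayed at 1.99 and was called (adjusted p = 0.0138, limma), although the labels do not say that libraries of the same number belong together.

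A pair of peaks had *Gmppa* as the nearest TSS and another gene as host. Both lay in exon 30 of 41 of *Speg*, a kinase gene of striated muscle, at chr1:75421495-75421895 and chr1:75422932-75423332, with differences of 3.55 and 3.09. *Gmppa*, which regulates the making of GDP-mannose, was counted at 4333, 4012 and 3957 in WT and at 4391, 3945 and 3855 in UTX TCD libraries, with overlap. The host *Speg* was counted at 42.6, 25.7 and 44.2 in WT and at 438.6, 409.2 and 256.5 in UTX TCD libraries. It rose without overlap, at a log2 fold change of 3.26 (standard error 0.28, limma adjusted p = 3.38e-05). By host in place of nearest TSS, 151 of 659 tested genes were called higher and 71 lower, and 82.9% of those called had the direction of their peaks.

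Large increases of expression also accompanied smaller gains than those above. *Rbm24*, an RNA-binding regulator of splicing in muscle, was counted at 22.8, 33.6 and 21.4 in WT and at 575.8, 548.5 and 474.0 in UTX TCD libraries. It rose by 4.33 on the log2 scale (standard error 0.21, limma adjusted p = 1.42e-06) without overlap, while its 5′ UTR peak differed by 0.68. *Dll1*, which encodes a ligand of Notch, was counted at 13.9, 11.8 and 6.10 in WT and at 157, 151 and 122 in UTX TCD libraries. Its groups were apart (log2 fold change 3.70, SE 0.33, adjusted p = 4.08e-05, limma), and its 5′ UTR peak had authors' means of 7.01 and 8.66. *Wnt10a*, a Wnt ligand gene, was counted at 20.8, 14.8 and 23.6 in WT and at 229, 215 and 305 in UTX TCD libraries. It too rose without overlap (log2 fold change 3.60, SE 0.25, adjusted p = 1.06e-05, limma); the peak in its own exon 4 differed by 0.36, and a second peak for which it was the nearest TSS lay in exon 4 of the neighbouring *Wnt6*, which had 0, 2 and 0 reads in WT and 0 in every UTX TCD library, at 0.99. *Cygb*, the haem protein cytoglobin, was counted at 18.8, 33.6 and 13.0 in WT and at 205, 192 and 213 in UTX TCD libraries, with no overlap and a 5′ UTR peak higher by 0.97 (log2 fold change 3.27, SE 0.32, adjusted p = 7.44e-05, limma).

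The losses included genes with high expression in WT progenitors. *Neurl3*, a ubiquitin ligase gene, had a peak in its last exon, exon 4 (chr1:36266272-36266672), with authors' means of 9.06 and 6.75. Its reads were 14508, 15265 and 15399 in the WT and 1527, 1666 and 1990 in the UTX TCD libraries. The groups did not overlap, and the log2 fold change was -3.13 (standard error 0.09, limma adjusted p = 5.21e-08). *Zan*, which encodes the sperm protein zonadhesin, had a peak in exon 40 of 88 that differed by -1.42. It was counted at 3295, 3076 and 3200 in WT and at 238, 206 and 254 in UTX TCD libraries, a fall by 3.78 on the log2 scale (standard error 0.10, limma adjusted p = 3.98e-08) without overlap.

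Other losses were at scarce transcripts. *Cd163* was counted at 425, 196 and 375 in WT and at 6.75, 11.2 and 4.42 in UTX TCD libraries, without overlap (log2 fold change -5.30, SE 0.39, adjusted p = 1.44e-05, limma). It is best known from macrophages. Of the myeloid markers given above *Csf1r* and *Fcgr3* were lower too, while the sum, which was mostly *Cd68*, was not; whether other cells carried this transcript was not tested. *Pdzrn3* was counted at 20.8, 20.7 and 16.8 in WT and at 4.50, 4.80 and 0 in UTX TCD libraries, also apart (log2 fold change -2.68, SE 0.69, adjusted p = 0.0138, limma), and all of its other 6 listed peaks were lower. Without WT replicate 1 or WT replicate 2 it was under the expression filter. *Map3k6*, a kinase gene of the MAP kinase cascade with a peak in exon 16 that differed by -2.05, had 13, 9 and 18 reads in the WT libraries and 1, 1 and 8 in the UTX TCD libraries and was under the expression filter.

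The lowest difference among exon and 5′ UTR peaks, -2.99, lay in exon 10 of 13 of *Rrp1* (chr10:78402447-78402847), a gene of ribosome assembly, with *Mir6907* as the nearest TSS. *Rrp1* was counted at 27261, 27460 and 28625 in WT and at 25989, 26669 and 26166 in UTX TCD libraries. The groups did not overlap but the change did not pass the test (log2 fold change -0.08, SE 0.04, adjusted p = 0.135, limma). A peak in exon 8 of 23 of *Inf2*, a formin of the actin cytoskeleton, nearest to the TSS of *Adssl1*, differed by -2.09. *Inf2* was counted at 9533, 8811 and 9624 in WT and at 4640, 4694 and 4090 in UTX TCD libraries. These values fell without overlap, at a log2 fold change of -1.06 (standard error 0.06, limma adjusted p = 5.36e-06).

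In some genes the exon gained accessibility while the transcript fell. *Scn11a*, a voltage-gated sodium channel gene, was counted at 439, 206 and 410 in WT and at 20.2, 22.4 and 12.5 in UTX TCD libraries, a log2 fold change of -4.15 (standard error 0.34, limma adjusted p = 2.51e-05) without overlap. Its peak in exon 10 of 27 was higher, from 6.13 to 6.89. *Myo3b*, a myosin gene of sensory cells, was counted at 152, 73.1 and 149 in WT and at 13.5, 8.01 and 2.95 in UTX TCD libraries, also without overlap (log2 fold change -3.89, SE 0.50, adjusted p = 3.45e-04, limma), and its exon 8 peak was higher, at 6.03 in WT and 7.27 in UTX TCD cells. *Ccdc162* was counted at 167, 154 and 178 in WT and at 11.2, 14.4 and 16.2 in UTX TCD libraries, with an exon 4 peak higher by 0.70.

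The opposition was also present at a 5′ UTR. *Pkib*, an inhibitor of protein kinase A, was counted at 29.7, 18.8 and 37.4 in WT and at 0, 4.00 and 1.47 in UTX TCD libraries, and its 5′ UTR peak was higher by 1.63. The groups did not overlap (adjusted p = 0.00192, limma), and the UTX TCD values rest on 0, 5 and 2 reads. Peak and transcript agreed at *1700030A11Rik*, which was counted at 16.8, 43.4 and 9.91 in WT and at 0, 0 and 3.69 in UTX TCD libraries and was under the expression filter without WT replicate 2. Its peak lay in exon 2 of the host *Bnip5*, lower by a difference of -0.30, and *Bnip5* was called lower too, without overlap (log2 fold change -1.11, SE 0.25, adjusted p = 0.00710, limma).

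Of 29 genes for T cell receptor signalling and costimulation, 8 had an exon or 5′ UTR peak by nearest TSS or host, 6 of them higher and 2 lower, at a median of 0.32, beside 87.7% higher and a median of 0.75 over all exon and 5′ UTR peaks. None of the 8 had a CpG ratio over 0.6, and exon and 5′ UTR peaks up to that ratio were higher in 74.7%, at a median of 0.56, and those up to 0.2 in 55.8%, at 0.35. *Zap70*, the kinase recruited to the activated receptor, had a 5′ UTR peak at 10.9 in WT and 11.3 in UTX TCD cells by the authors' means. *Lcp2*, the adaptor SLP-76, had one at 9.49 and 9.93. *Vav1*, a guanine nucleotide exchange factor, had an exon 16 peak higher by 0.88, and *Plcg1*, phospholipase Cγ1, an exon 4 peak lower by a difference of -0.46. In 7 of these genes the peak lay in the gene's own exon, and limma, edgeR and DESeq2 called 0 of the 7 in either direction, with 1 higher and 2 lower at an unadjusted limma p under 0.05. Over the whole list limma called 0 higher and 2 lower, beside 10.5% and 7.05% of all genes tested; 4 were higher at an unadjusted p under 0.05, and edgeR and DESeq2 called 0 higher. *Zap70* was counted at 27914, 27303 and 29936 in WT and at 32072, 33625 and 33691 in UTX TCD libraries, a separation without overlap that stayed under the fold limit (log2 fold change 0.22, SE 0.05, adjusted p = 0.00509, limma). *Lcp2* went the other way from its peak, at 58588, 52857 and 55147 in WT and 51862, 49096 and 45903 in UTX TCD libraries, also apart and under the fold limit (log2 fold change -0.18, SE 0.06, adjusted p = 0.0325, limma). So did *Cd3g*, a chain of the receptor complex named after its values were seen, with a peak higher by 0.34 and a transcript lower without overlap (log2 fold change -0.26, SE 0.06, adjusted p = 0.00631, limma).

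Among 17 transcription factors of progenitor cells, only *Myb* and *Zeb1* had such a peak. *Myb*, which sustains stem-like CD8+ T cells, had a peak in exon 10 of 16 at 5.02 and 6.13. Its reads were 13738, 17785 and 13240 in the WT and 18571, 17632 and 27054 in the UTX TCD libraries. The groups overlapped, and its log2 fold change of 0.48 (standard error 0.16, limma adjusted p = 0.0401) was just under the fold limit. It ran from 0.29 (adjusted p = 0.0852) without UTX TCD replicate 3 to 0.62 (adjusted p = 0.0219) without WT replicate 2, so the call depended on the library left out. The exon 2 peak of *Zeb1* differed by 0.48. Of 22 effector and cytotoxic genes, *Zeb2*, a factor of terminal effectors, alone had a peak, in the 5′ UTR, higher by 0.39, and its transcript was scarce, at 52.5, 64.2 and 35.8 in WT and 47.2, 49.6 and 56.8 in UTX TCD libraries. None of 22 adhesion and homing genes had one, although 8 of these genes were called lower and 2 higher by limma, beside 7.05% and 10.5% of all genes tested.

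Cytokine receptors and their signal chain had 4 such peaks, 3 of them lower, beside 139 of all 1130 exon and 5′ UTR peaks. Among exon and 5′ UTR peaks with a CpG ratio up to 0.6, 121 of 478 were lower, and up to 0.2, 38 of 86 were. None of the 4 had a CpG ratio over 0.6, and peaks of any annotation nearest to the genes of this list were higher in 62 of 103 cases, beside 68.8% of all listed peaks. *Il6ra*, the receptor for IL-6, which signals through STAT3, had a peak in exon 2 (chr3:89890232-89890632) at 7.78 in WT and 6.77 in UTX TCD cells. The other 5 listed peaks of this gene were all lower. Its reads were 32741, 26639 and 33094 in the WT and 19057, 19011 and 19526 in the UTX TCD libraries, a fall by 0.68 on the log2 scale (standard error 0.08, limma adjusted p = 1.72e-04) without overlap. The last exon of *Il2rb*, the β chain shared by the receptors for IL-2 and IL-15, had a peak higher by 0.46, with *Tmprss6* as the nearest TSS. The host *Il2rb* was counted at 38451, 41256 and 37165 in WT and at 62265, 61468 and 56764 in UTX TCD libraries, apart and higher (log2 fold change 0.63, SE 0.05, adjusted p = 3.65e-05, limma). *Il2rb* was named as a host after its values were seen.

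The peak nearest to *Il21r* is another case of a different host. It lay in exon 34 of 37 of *Gtf3c1*, a subunit of the RNA polymerase III factor TFIIIC, and was lower by a difference of -1.09, while the other 4 listed peaks nearest to *Il21r* were higher. *Il21r* was counted at 35102, 34760 and 38672 in WT and at 38968, 43212 and 42927 in UTX TCD libraries, higher without overlap but under the fold limit (log2 fold change 0.21, SE 0.06, adjusted p = 0.0209, limma). The host *Gtf3c1* went the other way from its peak, at 21049, 21196 and 21917 in WT and 24264, 24774 and 24549 in UTX TCD libraries. It was higher without overlap and also under the fold limit (log2 fold change 0.20, SE 0.04, adjusted p = 0.00317, limma). Among 30 chromatin regulators 3 peaks were found. They lay in the 5′ UTR of *Dnmt3b*, a DNA methyltransferase gene, at a difference of 0.31, and in exons of *Ezh1*, a Polycomb methyltransferase gene, at 0.92, and *Tet1*, an oxidase of methylcytosine, at -0.61. *Ezh1* and *Tet1* were hosts, and the nearest TSS was that of *Cntnap1* for the *Ezh1* peak and of *Ccar1* for the *Tet1* peak. *Dnmt3b* was counted at 1413, 1417 and 1430 in WT and at 1163, 1147 and 1172 in UTX TCD libraries, lower without overlap but under the fold limit (log2 fold change -0.29, SE 0.07, adjusted p = 0.00717, limma). Of the 30 genes limma, edgeR and DESeq2 called 0 in either direction, beside 10.5% higher and 7.05% lower by limma over all genes tested, while 12 were higher and 4 lower at an unadjusted limma p under 0.05.

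The genes of the sort gates were marked by 1 peak. *Slamf6*, which encodes Ly108, had a 5′ UTR peak at 10.2 in WT and 10.5 in UTX TCD cells, and its reads, at 27732, 34096 and 23305 in WT and 36665, 30980 and 35425 in UTX TCD libraries, overlapped. *Cxcr6* was counted at 12757, 9619 and 13724 in WT and at 5286, 5994 and 5695 in UTX TCD libraries, lower without overlap (log2 fold change -1.07, SE 0.12, adjusted p = 1.31e-04, limma). *Entpd1* was low in both genotypes, at 10.9, 29.6 and 11.4 in WT and 4.50, 12.8 and 4.42 in UTX TCD libraries. Neither *Cxcr6* nor *Entpd1* had an exon or 5′ UTR peak in the list.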

How the data were processed

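RNA-seq signal was deposited as counts per gene divided by 1 DESeq2 size factor per library. The authors had aligned these reads to mm10 with HISAT2 2.2.1 and counted them with featureCounts; strand setting and gene annotation were not given in the sources used here, which leaves genes that overlap on either strand uncertain. ATAC-seq reads were trimmed by the authors with Cutadapt and aligned with Bowtie2; peaks were called with MACS2, compared between genotypes with DiffBind and annotated with HOMER, and a shift for the transposase was not given. The deposited log2 concentrations were the authors' means per genotype, and every listed peak had an FDR under 0.05. The authors' own comparisons were deposited too, with a log2 fold change and an adjusted p-value per gene or peak, a p-value per peak and a standard error per gene; apart from this check of the FDR they were not used.

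Genes with a mean of at least 10 normalized reads over 6 libraries were fitted on genotype alone with limma 3.58.1 in R 4.3.3 (lmFit, then eBayes with a trend), after adding a pseudocount of 1 and taking log2, and p-values were adjusted by Benjamini-Hochberg. The WT libraries held 146456724, 144503203 and 193568919 counted reads, the UTX TCD libraries 61512402, 175462433 and 187275082, so low counts are least precise in UTX TCD replicate 1. Dividing each library by its smallest step gave whole reads, within 0.01 read, for 100% of values. On these reads edgeR 4.0.16 called 2541 genes and DESeq2 1.42.0 2422, beside 2538 by limma. By the study's methods each genotype had 3 mice, as biological replicates, for ATAC-seq, and a legend gives the same number for RNA-seq. The labels number the replicates without naming mice, and p-values measure the spread between these samples.

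Peak bases and exons came from RefSeq GRCm38.p6; 23908 of 23932 peaks gave a sequence. Tables were joined in Python 3.11.15 (pandas 2.3.3, scipy 1.17.1). Named genes were those with the 6 highest and 6 lowest peak differences, the 8 strongest called increases and 8 strongest decreases without overlap among genes with a peak, up to 4 genes per list by absolute difference, *Kdm6a*, *Slamf6*, *Cxcr6* and *Entpd1*; genes with at least 4 peaks were also to be named, and there were 0. A few results under this rule are left out. Members and lists were chosen with earlier results of these data known. Alternatives covered the pseudocount, filter, scaling, test, replicate block, fold limit, host gene, peak level, peak difference, distance and each library left out.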

Additional observations from a re-analysis of the deposited data

How the results depend on the processing

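The number of genes with an exon or 5′ UTR peak that were called higher (143) or lower (65) stayed within 1.5 times under another pseudocount, filter, library scaling, edgeR, DESeq2 and the host gene. Without any limit on the fold change, 110 genes were called lower, since the adjusted p alone then decides. With each library left out in turn the counts ran from 120 to 147 and from 60 to 66. By the labels, libraries of the same number share only the number. Their deviations from the group means correlated at 0.31, -0.20 and 0.09, and those of different numbers at -0.32 to 0.29. These few values show no clear pairing and cannot exclude one. With the replicate block 141 genes were called higher and 61 lower. The share of peaks higher in UTX TCD cells, 87.7%, was 69.1% when the difference was centred on the median of all listed peaks, 85.2% among peaks of at least the median concentration and 90.1% among absolute differences over 1. By CpG ratio, a split chosen after seeing the data, it was 97.2% over 0.6 and 74.7% up to it; the cause was not tested. The share of called genes with the direction of their peaks, 81.7%, ran up to 84.3% over the alternatives tried. Across 34 named genes, 389 of 403 refits kept direction and call, and 7 brought *Gpr137b* or *Myb* past the limits. For *Gpr137b* these were the replicate block and the fit without WT replicate 1. In 17 of the 389 the adjusted p crossed its limit while the call stayed as it was, in *Il21r*, *Lcp2*, *Myb*, *Slamf6* and *Zeb1*; for *Myb* it was 0.0911 by DESeq2 and 0.0401 by edgeR, which called it. Of 408 refits 5 gave no value, since *Pdzrn3*, *Prox1*, *1700030A11Rik* or *Entpd1* fell under the filter without a library, and the first 3 lost their call there. A pseudocount of 10 drew scarce transcripts towards 0 with the call kept, such as *Ecel1* from 4.87 to 2.16 and *Pkib* from -3.63 to -1.69. In another 7 the sign turned in genes that were not called and stayed so. Scaling every library to an equal sum took *Gmppa* from a log2 fold change of -0.0142 to 0.0482 and *Plcg1* from -0.0597 to 0.00270. With each library left out in turn, *Gmppa* ran from -0.0711 to 0.0262 and *Zeb2*, at 0.0452 in the main fit, from -0.182 to 0.230.

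Limits are that ATAC-seq had 1 mean per genotype and no library values here, that the list holds only peaks past the authors' FDR, so exon peaks that did not differ were not analysed here, and that a 401-bp window spans more than the exon. Peaks of 1 CpG island or gene cluster are not independent. Genes near the filter rest on few reads, and UTX TCD replicate 1 had the lowest depth.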
